A study of Homo sapiens with 11 samples.

Results

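Semaphorins are guidance ligands, and neuropilins and plexins are their receptors. The set described here holds 10 human genes of this system: the secreted class 3 ligands SEMA3A, SEMA3B, SEMA3C, SEMA3D and SEMA3F, the transmembrane ligand SEMA6D, the co-receptors NRP1 and NRP2, and the plexins PLXNA1 and PLXND1. They are 10 of the 35303 genes in the deposited count file and were selected on their CPM (read counts scaled to library size) in these same libraries, compared between batches and between treatments. Their values are therefore a description, and no test of them is reported as support. All 10 passed the filter on low counts, which kept 16117 genes.

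The cells were Lx2 (LX-2), an established line of human hepatic stellate cells, of wild-type genotype, grown in medium with serum. Stellate cells are the vitamin A storing pericytes of the liver and its main source of scar matrix. Control cells received PBS, a salt buffer. Infected cells received HIV-1BaL, a macrophage-tropic strain, at an MOI (infectious units per cell) of 0.1. The third group received the same virus together with LTA, lipoteichoic acid from the wall of Gram-positive bacteria, at 1 µg/ml. RNA was taken after 24 h, and each group had 3 RNA-seq libraries, 1 in each of the batches that the labels number 1, 2 and 3. No library of LTA without virus was analysed here, so an effect of LTA alone cannot be told apart from one that needs the virus. The line is 1 established line, and the labels do not say that the libraries came from separate cultures, so the spread between libraries may be technical.

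Class 3 semaphorins are secreted, cleaved by furin-like proteases, and mostly bind a neuropilin, which holds the ligand, in a complex with a plexin, which carries the signal into the cell by way of small GTPases. Neuropilins also bind VEGF, and NRP1 is known in hepatic stellate cells for supporting signalling by PDGF and TGF-beta. The family is best known for steering axons and vessel sprouts, usually by repulsion.

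Libraries held 50.6 to 90.6 M counts, and those of batch 3 held 50.6 to 62.2 M. Batch 3 differed widely from the other 2 batches in each treatment: edgeR, with batch and group in 1 fit and an adjusted p below 0.05, called 11478 of 16117 genes between batch 3 and the mean of batches 1 and 2, against 5 between batches 2 and 1. The summed CPM of 14 stellate cell or fibroblast markers was 3844 to 5123 in batches 1 and 2 and 6698 to 7537 in batch 3. Of those 14, COL1A2, VIM and LOX were called higher in batch 3 and 7 were called lower, and DCN and LUM had 0 counts in every library of batch 3. DES and LRAT, markers of stellate cells, were near 0 in all 9 libraries. Summed markers of other liver cells were low: 0.620 to 2.20 CPM for 7 hepatocyte genes, 0.454 to 1.27 CPM for 7 macrophage or leukocyte genes, with VSIG4 and C1QA at 0, and 3.06 to 10.5 CPM for 7 endothelial genes, mostly TEK, with LYVE1 and CLEC4G at 0. For 3 cholangiocyte genes the sum was 3.05 to 7.72 CPM. For 6 Schwann cell or neuron genes it was 9.96 to 15.7 CPM, with STMN2 at 0. The labels call the split a batch and do not say what differed between batches. The part of that difference in the values below was not tested.

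SEMA3A, the founding repulsive ligand, which signals through NRP1 and A-type plexins, had the widest range of the set. Its gene lies at chr7:83585093-84122040 on the minus strand (GRCh37). In the PBS libraries of batches 1, 2 and 3 it stood at 3.29, 3.61 and 148 CPM. In the HIV-1 libraries it stood at 2.86, 3.22 and 142 CPM, and in the HIV-1+LTA libraries at 3.74, 4.80 and 191 CPM. Each library of batch 3 was thus far above all 6 of the others, with no overlap. The mean was 3.59 ± 0.673 CPM (SD, n = 6 libraries of batches 1 and 2, treatments together) against 161 ± 26.9 CPM (SD, n = 3), a 44.8-fold difference, and the fitted log2 fold change was 5.49 (SE 0.0514). In bulk RNA, fewer cells with a transcript and less of it per cell cannot be told apart, here and for every gene below.

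SEMA3B, a ligand first known as a candidate tumour suppressor from the short arm of chromosome 3, ran the other way. The gene is at chr3:50304990-50314977 on the plus strand. It stood at 28.9, 30.4 and 2.98 CPM in the PBS libraries of batches 1, 2 and 3, at 29.5, 32.5 and 3.15 CPM in the HIV-1 libraries and at 31.8, 34.9 and 6.15 CPM in the HIV-1+LTA libraries. All 3 libraries of batch 3 lay below the other 6, and the highest of them was the one with LTA. The mean of 31.3 ± 2.22 CPM (SD, n = 6) was 7.65-fold that of batch 3, 4.09 ± 1.78 CPM (SD, n = 3), and the fitted log2 fold change was -2.97 (SE 0.142).

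SEMA3D, which guides endothelial and neural crest cells, followed SEMA3A in direction. It maps to chr7:84624869-84816372, minus strand, on the same arm as SEMA3A and SEMA3C. The PBS libraries had 14.6, 23.1 and 71.6 CPM, the HIV-1 libraries 15.7, 17.6 and 61.4 CPM and the HIV-1+LTA libraries 16.3, 15.3 and 79.5 CPM. Batch 3 was again above all other libraries, at 70.8 ± 9.08 CPM (SD, n = 3) against 17.1 ± 3.12 CPM (SD, n = 6), with a fitted log2 fold change of 2.06 (SE 0.102).

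SEMA3C, a ligand of both neuropilins needed for the cardiac outflow tract, was the most abundant ligand of the set per kb of exon in every batch. Its position is chr7:80371854-80551675 on the minus strand. Its CPM were 143, 167 and 226 in the PBS libraries, 148, 158 and 216 in the HIV-1 libraries and 150, 135 and 191 in the HIV-1+LTA libraries. The batches did not overlap, but the step was small: 150 ± 11.1 CPM (SD, n = 6) against 211 ± 17.7 CPM (SD, n = 3), a log2 fold change of 0.49 (SE 0.0555).

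SEMA3F, which prefers NRP2, was low throughout. It lies at chr3:50192478-50226508 on the plus strand, near SEMA3B. It stood at 3.43, 4.11 and 4.32 CPM with PBS, at 3.35, 4.22 and 4.31 CPM with HIV-1 and at 4.55, 5.30 and 5.57 CPM with HIV-1+LTA. The batch 3 library was the highest of each treatment by a small step, and with treatments pooled batch 3 overlapped the others (log2 fold change 0.19, SE 0.0937), while the LTA library was the highest of its batch in all 3. These values rest on 191 to 376 counts per library. The gene shares 110 exon bases with the opposite-strand gene SEMA3F-AS1, which had 39 to 74 counts, and the strand setting of the counting is not given in the sources used here. The same limit holds for NRP1 and NRP2, which share 561 and 147 exon bases with opposite-strand genes that were not analysed here.

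SEMA6D, a membrane-bound ligand that binds PLXNA1 and is known from heart development, lies at chr15:47476298-48066425 on the plus strand. It stood at 6.12, 5.22 and 2.36 CPM with PBS, at 4.62, 3.67 and 2.72 CPM with HIV-1 and at 5.92, 9.71 and 5.59 CPM with HIV-1+LTA. The batch 3 library was the lowest of each treatment, and its LTA library lay within the range of the other batches, so the batches overlapped with treatments pooled. The fitted log2 fold change of batch 3 was -0.76 (SE 0.189), from 118 to 689 counts per library.

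NRP1, the neuropilin that SEMA3A and VEGF bind, lies at chr10:33466420-33625190 on the minus strand. It stood at 91.7, 64.2 and 176 CPM in the PBS libraries of batches 1, 2 and 3, at 80.5, 68.3 and 184 CPM with HIV-1 and at 83.5, 78.8 and 259 CPM with HIV-1+LTA. The library with LTA was the highest of batch 3, and all 3 of that batch lay above the other 6. Means were 77.8 ± 10.1 CPM (SD, n = 6) and 206 ± 46.2 CPM (SD, n = 3), with a log2 fold change of 1.40 (SE 0.0821).

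NRP2, the neuropilin preferred by SEMA3F and also a co-receptor for lymphatic VEGF, is at chr2:206546714-206662857 on the plus strand. It had 9.66, 7.26 and 41.1 CPM in the PBS libraries, 9.11, 8.22 and 44.7 CPM in the HIV-1 libraries and 8.65, 8.002 and 37.2 CPM in the HIV-1+LTA libraries. Batch 3 was above every other library, at 41.0 ± 3.73 CPM (SD, n = 3) against 8.48 ± 0.849 CPM (SD, n = 6), and the log2 fold change was 2.27 (SE 0.0640). Unlike NRP1, its batch 3 library with LTA was the lowest of the 3.

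Both plexins had narrow ranges over the 9 libraries. PLXNA1, which carries the SEMA3A and SEMA6D signals, is at chr3:126701536-126756232 on the plus strand and stood at 50.9, 55.6 and 64.1 CPM with PBS, 55.1, 61.6 and 74.8 CPM with HIV-1 and 54.0, 57.1 and 78.9 CPM with HIV-1+LTA. Batch 3 lay above the other libraries by a log2 fold change of 0.38 (SE 0.0497). PLXND1, the vascular plexin that binds SEMA3E directly, is at chr3:129274057-129325519 on the minus strand and stood at 55.03, 61.1 and 67.5 CPM with PBS, 62.7, 58.9 and 68.6 CPM with HIV-1 and 59.4, 71.6 and 69.7 CPM with HIV-1+LTA. Its batches overlapped, and the log2 fold change was 0.16 (SE 0.0571).

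**Figure D1:**
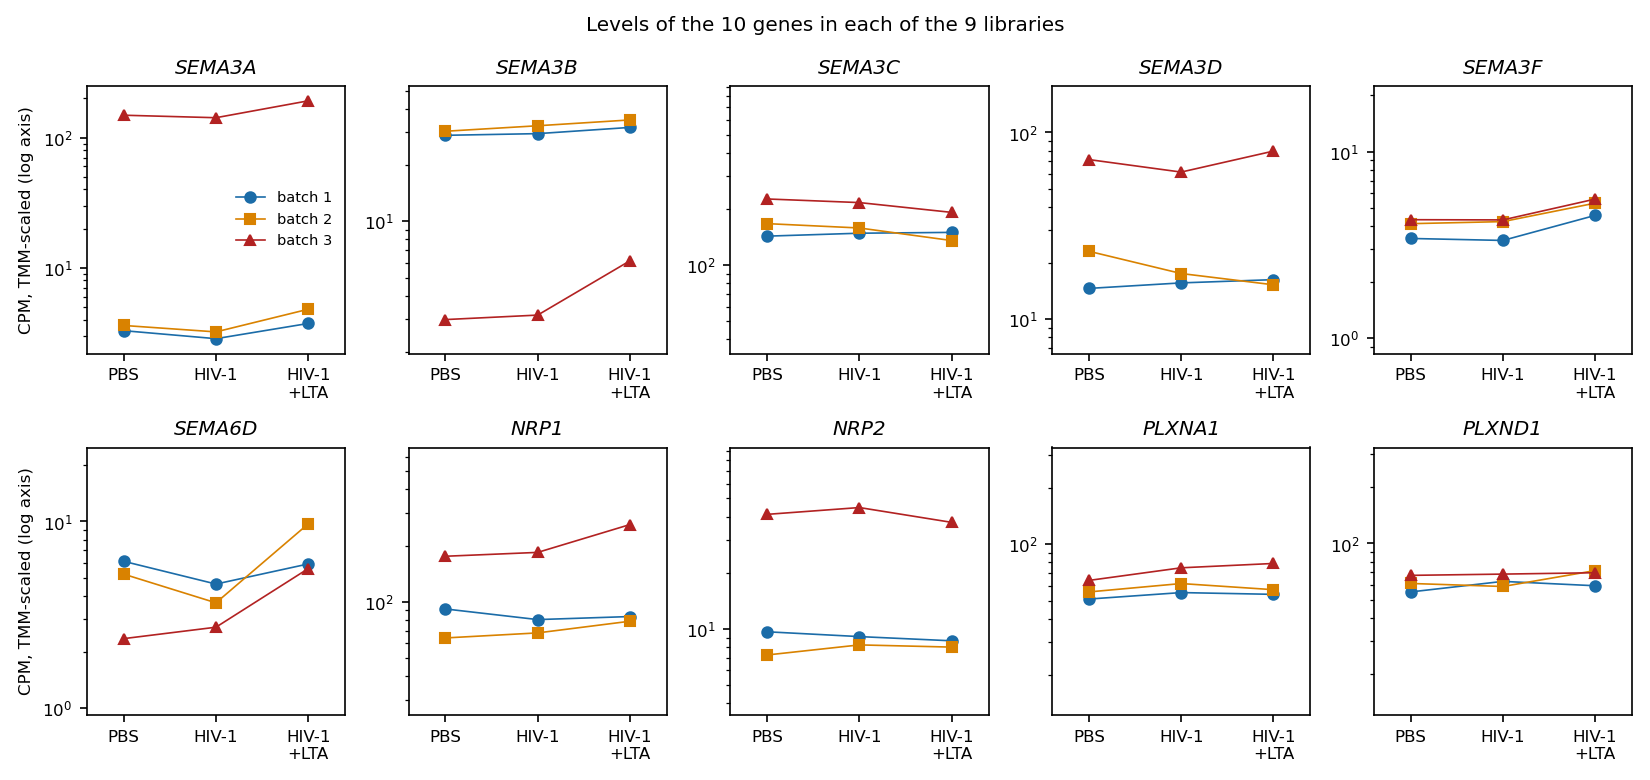
TMM-scaled CPM of the 10 genes (log axis; each panel has its own range, and tick spacing differs between panels) by treatment, with 1 point per library and 1 line per batch. SEMA3A, SEMA3C, SEMA3D, NRP1, NRP2 and PLXNA1 sit higher in all 3 libraries of batch 3, SEMA3B sits lower, and SEMA3F, SEMA6D and PLXND1 overlap between batches.

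Counted over the set, 6 of 10 genes lay above and 1 of 10 below all other libraries in batch 3, and 3 overlapped. Over all tested genes, 30.6% lay above, 30.2% below and 60.8% in either direction. With edgeR 7 of 10 were called higher and 2 lower in batch 3, where 35.2% of all genes were called higher, 36% lower and 71.2% in either direction. DESeq2 called the same number of members in each direction, with 34% of all genes higher, 34.9% lower and 68.9% either way. Among calls of at least 2-fold, 4 members were higher and 1 lower, against 8.03% of all genes higher, 11% lower and 19% in either direction. The rule used these values, so nothing is read from these counts. The call of PLXND1 was lost when any 1 of 5 libraries was left out (PBS replicates 1, 2 and 3 and HIV-1 replicates 2 and 3), and that of SEMA6D without the group term. Between batches 2 and 1 no member was called by either tool, where edgeR called 0.031% of genes, all of them higher (0% lower). DESeq2 called 0.639% there, 0.49% higher and 0.149% lower.

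The proximal promoters are shown for genes that stood apart in batch 3 in opposite directions, NRP2 and SEMA3D (higher) and SEMA3B (lower). The windows are from RefSeq on GRCh38.p14, run from 250 bases before to 50 after the annotated start, and are written 5′ to 3′ along the gene's strand. Capitals mark the E-box CANNTG and the GC box GGGCGG, each searched on both strands, where adjoining GC boxes can share a base. For SEMA3B, 1 of its 5 windows is shown, the one in which most of the searched motif types were found.
NRP2 chr2:205682251-205682550, plus strand: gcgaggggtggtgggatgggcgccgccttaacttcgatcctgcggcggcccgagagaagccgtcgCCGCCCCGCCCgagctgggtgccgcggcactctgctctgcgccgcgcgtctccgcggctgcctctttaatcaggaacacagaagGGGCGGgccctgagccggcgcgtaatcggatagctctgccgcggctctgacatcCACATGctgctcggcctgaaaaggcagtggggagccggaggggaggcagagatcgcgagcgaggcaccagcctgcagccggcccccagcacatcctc
SEMA3D chr7:85187007-85187306, minus strand: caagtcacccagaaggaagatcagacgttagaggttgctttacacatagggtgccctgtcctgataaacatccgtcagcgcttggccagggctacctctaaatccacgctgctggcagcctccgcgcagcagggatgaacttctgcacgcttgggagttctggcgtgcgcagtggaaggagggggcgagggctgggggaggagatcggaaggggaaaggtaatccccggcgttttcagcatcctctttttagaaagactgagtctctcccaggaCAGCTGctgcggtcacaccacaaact
SEMA3B chr3:50267402-50267701, plus strand: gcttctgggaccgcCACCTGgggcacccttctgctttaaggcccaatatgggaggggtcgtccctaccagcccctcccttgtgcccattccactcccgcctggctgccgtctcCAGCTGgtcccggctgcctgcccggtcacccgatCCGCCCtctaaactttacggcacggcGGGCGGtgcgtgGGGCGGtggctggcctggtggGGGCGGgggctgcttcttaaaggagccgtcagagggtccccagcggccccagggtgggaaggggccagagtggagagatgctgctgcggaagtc
The NRP2 window is 70.0% GC with 33 CpG dinucleotides, 1 E-box and 3 GC boxes. That of SEMA3D is 57.0% GC with 14 CpG, 1 E-box and no GC box, and that of SEMA3B is 68.7% GC with 18 CpG, 2 E-boxes and 4 GC boxes. The median over all 35116 windows of 300 bases was 58.7% GC. The table held 17 windows for 8 of the 10 genes, and SEMA3A and NRP1 were not matched. SEMA3B alone supplied 5 of the windows. Windows of the same gene can overlap, as for SEMA3B and SEMA3F, so a site can be counted more than once. An E-box was in 11 of these 17 and in 68.7% of all windows, and a GC box in 10 of 17 and in 45.0% of all. The TATAAA box, in 11.5% of all windows, and the AP-1 site TGANTCA, in 7.71%, were in none of the 17. GGAATG was in 3 of 17 (14.0% of all), CCAAT in 3 of 17 (34.6%) and TGACGTCA in 1 of 17 (1.85%). These matches describe letters in a window and show no binding. PLXNA1 and PLXND1, the least variable of the set, each have 1 window, at 83.0% and 87.3% GC.

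Levels were compared between genes per kb of exon. The 3 libraries of a batch were 1 of each treatment, so the SD, called the spread here, includes differences between treatments and does not measure replicates. In batch 1 the order was SEMA3C at 24.1 ± 0.583, NRP1 at 7.40 ± 0.505, PLXND1 at 6.18 ± 0.401, SEMA3B at 5.21 ± 0.270 and PLXNA1 at 4.75 ± 0.194 CPM per kb (SD, n = 3). SEMA3D followed at 1.88 ± 0.102, and SEMA3F at 0.782 ± 0.140, NRP2 at 0.658 ± 0.0366, SEMA6D at 0.652 ± 0.0954 and SEMA3A at 0.356 ± 0.0476 CPM per kb closed the list. SEMA3F, NRP2 and SEMA6D lay within their spread of each other. In batch 2 SEMA3C stood at 25.1 ± 2.65, PLXND1 at 6.68 ± 0.712, NRP1 at 6.11 ± 0.657, SEMA3B at 5.65 ± 0.394 and PLXNA1 at 5.17 ± 0.280 CPM per kb, and each of the last 4 was within the spread of its neighbour. Below them were SEMA3D at 2.26 ± 0.487, SEMA3F at 0.941 ± 0.136, SEMA6D at 0.727 ± 0.368, NRP2 at 0.563 ± 0.0362 and SEMA3A at 0.419 ± 0.0893 CPM per kb, where SEMA6D overlapped all 3 of its neighbours. In batch 3 SEMA3C stood at 34.6 ± 2.91, and NRP1 at 17.9 ± 4.01 and SEMA3A at 17.4 ± 2.90 did not differ beyond their spread. SEMA3D at 8.57 ± 1.10, PLXND1 at 7.18 ± 0.117 and PLXNA1 at 6.46 ± 0.684 came next, then NRP2 at 2.95 ± 0.268, SEMA3F at 0.981 ± 0.150, SEMA3B at 0.710 ± 0.309 and SEMA6D at 0.417 ± 0.208 CPM per kb. PLXND1 and PLXNA1 were within their spread of each other, as were SEMA3F and SEMA3B, and SEMA3B and SEMA6D. SEMA3A thus had the lowest mean of the 10 in batches 1 and 2 and the third highest in batch 3. SEMA3B had the fourth highest mean in batches 1 and 2, tied with its neighbours in batch 2, and was among the 3 lowest in batch 3.

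The ligand mixture of the class differed accordingly. Summed over the 7 class 3 genes, SEMA3E and SEMA3G included, the level was 33.0 to 38.6 CPM per kb in the 6 libraries of batches 1 and 2 and 60.8 to 64.9 CPM per kb in batch 3. SEMA3C made up 65.4 to 72.2% of that sum in batches 1 and 2 and 48.3 to 58.2% in batch 3. The share of SEMA3A was 0.918 to 1.53% against 24.7 to 31.8%, and that of SEMA3D 5.37 to 7.25% against 12.2 to 14.8%. For SEMA3B the share was 13.6 to 17.9% against 0.797 to 1.64%. SEMA3E, with 3.71 to 6.41% against 1.57 to 2.65%, and SEMA3F, with 2.06 to 3.24% against 1.38 to 1.78%, held small shares in all libraries. On the receptor side, NRP1 stood at 10.0 to 11.9 times the level of NRP2 per kb in batches 1 and 2 and at 4.97 to 8.40 times in batch 3, where the ratio was highest with LTA. These shares restate the levels that chose the genes.

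**Figure D2:**
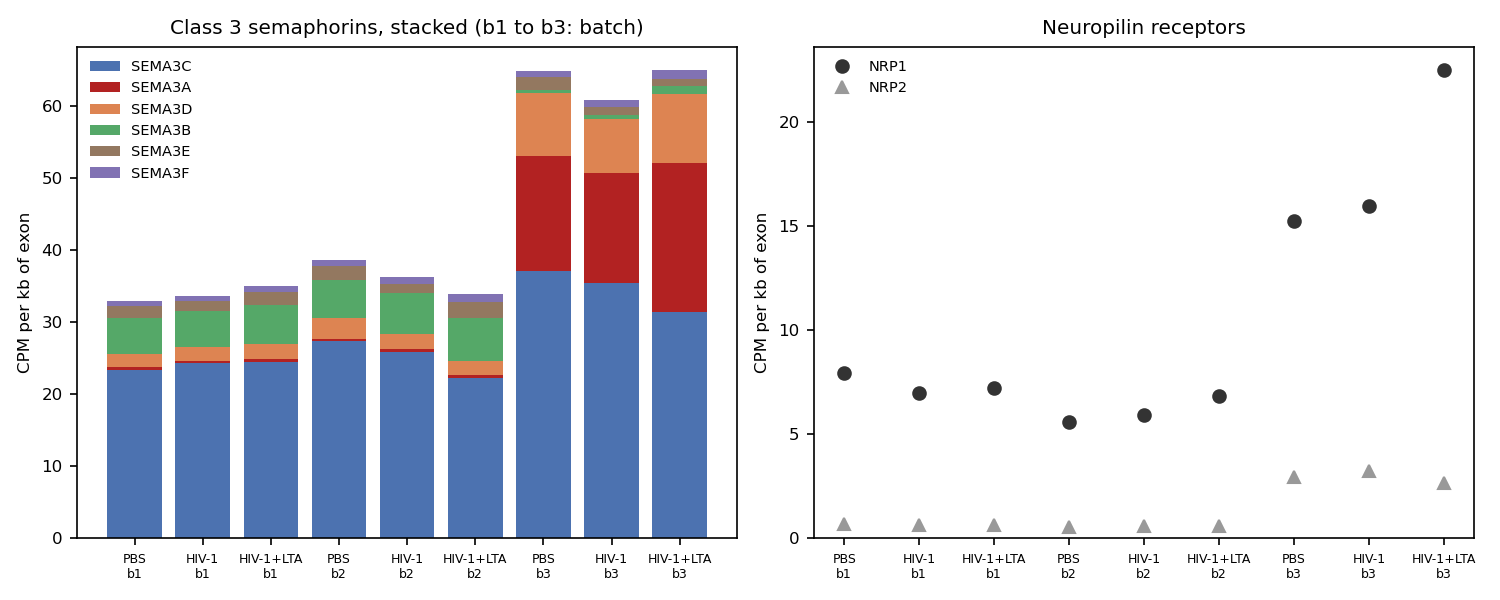
Left, CPM per kb of exon of 6 class 3 semaphorins, stacked for each of the 9 libraries (b1 to b3 are the batches); SEMA3G, at 0.0577% of the class or less in every library, is not drawn. Right, NRP1 (circles) and NRP2 (triangles) on the same scale, with a linear axis from 0. SEMA3A is barely visible in batches 1 and 2 and takes 24.7 to 31.8% of the stack in batch 3, and NRP1 is above NRP2 in all 9 libraries.

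The rest of the family did not share 1 direction in batch 3. Of 21 other semaphorins and plexins, SEMA3G and SEMA5B were too low to test, and of the other 19 edgeR called 4 higher and 9 lower, with 6 not called, a share of 68.4% near the 71.2% of all genes (35.2% higher, 36% lower). Their median log2 fold change was -0.375, against 0.435 for the 10 members, which were chosen on such values, and -0.0141 over all genes tested. PLXNA2, a sister of PLXNA1, stood at 5.81 CPM on average in batches 1 and 2 and at 28.4 CPM in batch 3, a log2 fold change of 2.28 (SE 0.0861, adjusted p = 7.69e-10 in edgeR). In the other direction, PLXNA3 went from 34.3 to 16.3 CPM (log2 fold change -1.07, SE 0.0579) and PLXNB2, a receptor of class 4 semaphorins, from 85.4 to 41.7 CPM (-1.04, SE 0.0806). PLXNC1, the receptor of SEMA7A, fell from 4.98 to 1.91 CPM (-1.39, SE 0.146), SEMA5A from 69.7 to 29.6 CPM (-1.19, SE 0.144) and SEMA4B from 14.9 to 7.72 CPM (-0.96, SE 0.0857). Their adjusted p-values in edgeR ran from 1.15e-08 for PLXNA3 to 1.2e-05 for SEMA5A. Of the 19, 4 lay above and 7 below all other libraries in batch 3, and 8 overlapped, where 30.6% of all genes lay above, 30.2% below and 60.8% in either direction.

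**Figure D3:**
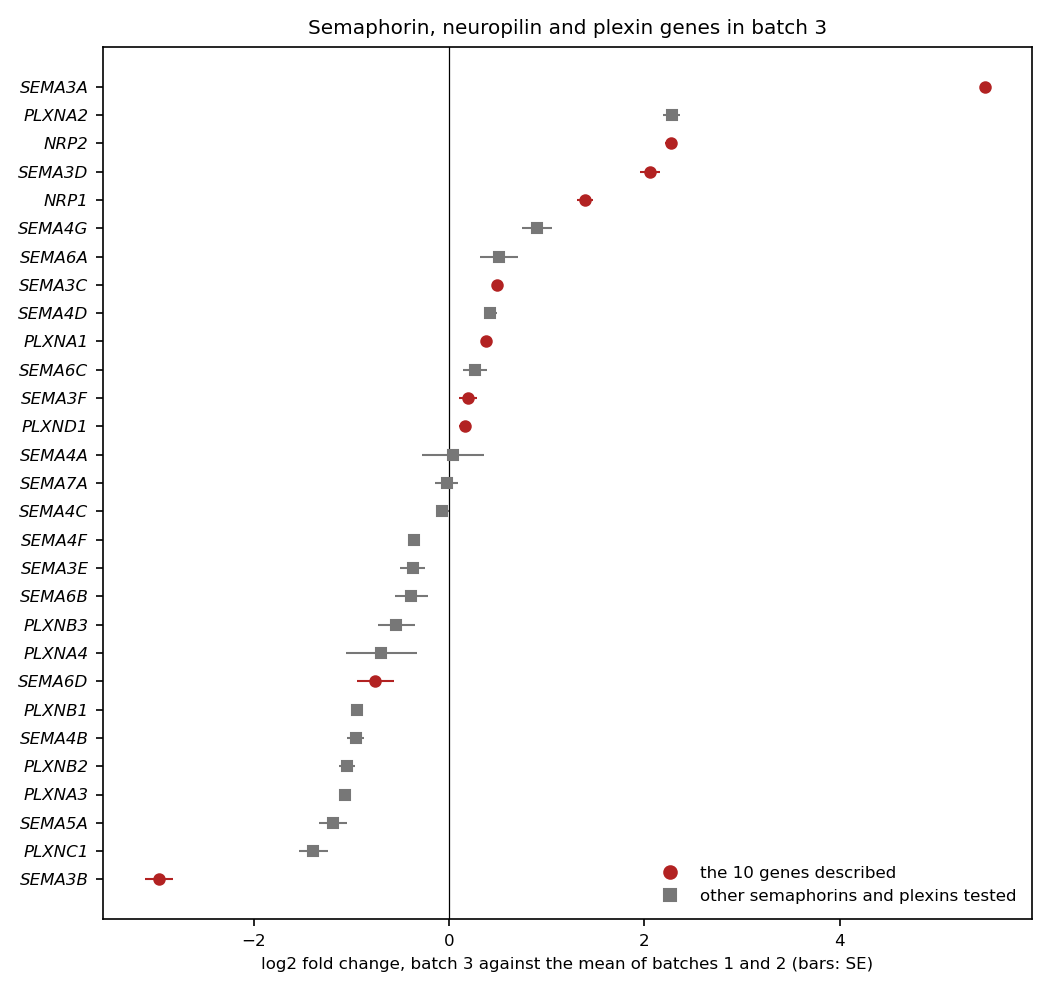
Fitted log2 fold change (x axis; bars are SE, hidden where smaller than the symbol) of batch 3 against the mean of batches 1 and 2 for the 10 genes described (circles) and the 19 other tested semaphorins and plexins (squares). SEMA3A at 5.49 and SEMA3B at -2.97 are the extremes, and PLXNA2 at 2.28 lies next to NRP2 at 2.27.

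Downstream of the receptors, 37 of 38 listed intracellular genes of semaphorin signalling were tested, and 22 were called higher and 8 lower in batch 3, with a median log2 fold change of 0.287. These are 81.1% of the 37, beside 71.2% of all genes (35.2% higher and 36% lower). DPYSL3 and DPYSL4 belong to the collapsin response mediators, cytosolic relays of SEMA3A. DPYSL3 stood at 192 and 475 CPM (log2 fold change 1.31, SE 0.0486, adjusted p = 6.99e-10) and DPYSL4 at 0.793 and 4.63 CPM (2.54, SE 0.159) in batches 1 and 2 and in batch 3. FARP2, a Rac exchange factor that acts at plexins, rose from 19.8 to 75.02 CPM (1.92, SE 0.0454), and MICAL2, an actin oxidase, from 173 to 385 CPM (1.15, SE 0.0783). The kinases PAK1 and ROCK2 were higher by log2 fold changes of 1.53 (SE 0.0404) and 1.20 (SE 0.0535). These genes were named for the size of their change, and all were higher. Of the 8 called lower none differed by 2-fold, while 7 of those called higher did. Of the most abundant genes of this list, RHOA stood at 1003 and 752 CPM and CFL1 at 1046 and 1643 CPM. Of 10 tested partners of the neuropilins and VEGF ligands, 3 were called higher and 5 lower, or 80% beside the same 71.2%. FLT1, a VEGF receptor, fell from 11.9 to 1.15 CPM (-3.35, SE 0.131), and L1CAM, an adhesion molecule that associates with NRP1, from 281 to 50.7 CPM (-2.47, SE 0.0678). MET, a receptor kinase that plexins and NRP1 can engage, was at 194 and 268 CPM (0.48, SE 0.0806). Of 5 convertases that cleave class 3 ligands, PCSK7 was called higher (0.79, SE 0.0471) and 3 were called lower, among them FURIN (-0.62, SE 0.0616), again 80% beside 71.2%. In the other guidance families (slits, robos, netrins, ephrins and their receptors) 13 of 29 tested genes were called higher and 11 lower, which is 82.8% beside 71.2% of all genes. The largest change was that of EFNA5, an ephrin, at 12.4 and 0.222 CPM (-5.81, SE 0.156). EFNB3 (-3.67, SE 0.176), ROBO1, a slit receptor (-3.62, SE 0.136), EPHA5 (-3.00, SE 0.218) and EFNA1 (-2.34, SE 0.277) followed the same direction. NTN4, a netrin, went in the opposite one (2.33, SE 0.0586).

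The treatments were compared within each batch. HIV-1 against PBS gave fitted log2 fold changes from -0.29 to 0.16, with a median of -0.00808, beside -0.00151 over all genes. PLXNA1 was higher with HIV-1 in each batch, by 0.11, 0.15 and 0.22 in log2 CPM (fitted log2 fold change 0.16, SE 0.0580), and SEMA3A was lower in each, by -0.20, -0.16 and -0.06 (fitted -0.12, SE 0.0659). SEMA3B was above PBS by 0.03, 0.10 and 0.08. These are 2 members higher and 1 lower in 3 of 3 batches, where 16.3% of all genes were higher and 17.1% lower. SEMA6D differed by -0.40, -0.51 and 0.20, and NRP1 by -0.19, 0.09 and 0.07, so batch 3 or batch 1 went the other way. No member was called by edgeR, which called 0% of 16117 genes (678 at an unadjusted p under 0.05), or by DESeq2, which called 0.0062% (1 gene, lower; 0% higher).

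Adding LTA to HIV-1 gave the largest treatment differences of the set in SEMA6D and SEMA3A. SEMA6D was higher with HIV-1+LTA than with HIV-1 by 0.36, 1.40 and 1.03 in log2 CPM in batches 1, 2 and 3, a fitted log2 fold change of 0.95 (SE 0.210) or 1.93-fold. SEMA3A was higher by 0.38, 0.57 and 0.43 (fitted 0.46, SE 0.0658, 1.37-fold), a similar step from levels of 2.86 and 3.22 CPM and from one of 142 CPM. SEMA3F was higher by 0.44, 0.33 and 0.37 (fitted 0.38, SE 0.108). For these 3 genes the step was in the same direction in each batch and did not rest on batch 3.

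For SEMA3B, NRP1 and NRP2 the largest step was in batch 3. SEMA3B was higher by 0.11 and 0.10 in batches 1 and 2 and by 0.96 in batch 3, where its level was lowest, and the fitted value was 0.30 (SE 0.138). NRP1 was higher by 0.05, 0.21 and 0.49 (fitted 0.26, SE 0.0986), while NRP2 was lower by -0.07, -0.04 and -0.26 (fitted -0.14, SE 0.0794). Without HIV-1+LTA replicate 3 the fitted values were 0.11 for SEMA3B and 0.11 for NRP1. SEMA3D differed by 0.06, -0.20 and 0.37, SEMA3C by 0.01, -0.22 and -0.17 and PLXND1 by -0.08, 0.28 and 0.02, with no common direction. The fitted values of the plexins were -0.02 (SE 0.0580) for PLXNA1 and 0.08 (SE 0.0663) for PLXND1. In all, 5 members were higher and 1 lower in 3 of 3 batches, where 16.7% of all genes were higher and 17.1% lower.

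No member was called with edgeR between HIV-1+LTA and HIV-1, where 0% of genes were called and 2486 of 16117 had an unadjusted p under 0.05. DESeq2 called 2 members higher, SEMA3A and SEMA6D, and none lower, where it called 1.1% of genes higher, 0.453% lower and 1.55% in either direction. The rule used this contrast, and nothing is read from the count. With HIV-1+LTA replicate 1 left out, edgeR called 2390 of 16342 genes, 1155 of them higher and 1235 lower. With them it called SEMA3A, NRP1 and SEMA6D as higher and SEMA3C as lower. With all of batch 3 left out edgeR called 0 genes and no member, and the same held with all of batch 2 left out. With all of batch 1 left out it called 1567 of 16165 genes, 839 higher and 728 lower. SEMA3A, NRP1 and SEMA6D were then among the higher ones. Of the lists, DESeq2 called PLXNB2 higher (0.31, adjusted p = 0.0454) and MICAL2 lower (-0.35, adjusted p = 0.0166), and edgeR called none.

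HIV-1+LTA against PBS shares its libraries with the comparison above, so its values stand beside those and are no second support. The fitted log2 fold changes were 0.67 (SE 0.204) for SEMA6D, 0.38 (SE 0.107) for SEMA3F, 0.36 (SE 0.138) for SEMA3B, 0.33 (SE 0.0638) for SEMA3A and 0.25 (SE 0.0985) for NRP1. SEMA3C was lower, at -0.16 (SE 0.0651), and SEMA3D, NRP2, PLXNA1 and PLXND1 lay between -0.09 and 0.14. SEMA6D differed from PBS by -0.05, 0.89 and 1.23 in batches 1, 2 and 3, so in batch 1 the LTA library was near the PBS level, and its fitted value without replicate 1 was 1.03. SEMA3B differed by 0.14, 0.20 and 1.04 and NRP1 by -0.13, 0.30 and 0.56. Their fitted values without replicate 3 were 0.17 and 0.08, and that of NRP1 without replicate 1 was 0.44. SEMA3F stood 0.41, 0.36 and 0.36 above PBS and SEMA3A 0.18, 0.41 and 0.37 above it. Of the members, 5 were higher in 3 of 3 batches and 0 lower, where 17.5% of all genes were higher and 16.4% lower. With edgeR 0% of genes were called (2709 at an unadjusted p under 0.05) and no member. DESeq2 called SEMA3A and SEMA6D higher, where it called 0.769% of genes higher, 0.676% lower and 1.45% either way. The authors' deposited table, whose fold changes match this comparison, lists 0.68 (SE 0.203) for SEMA6D and 0.32 (SE 0.0844) for SEMA3A.

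**Figure D4:**
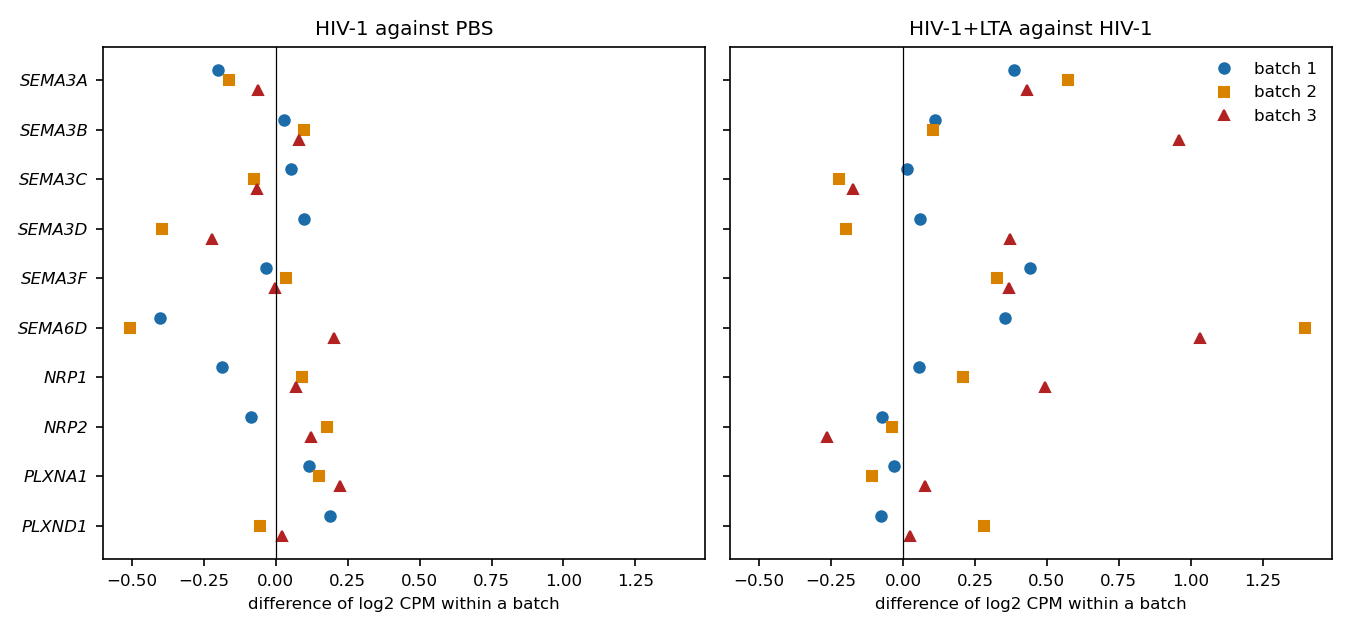
Difference of log2 CPM between 2 libraries of the same batch (x axis) for the 10 genes, with HIV-1 against PBS on the left and HIV-1+LTA against HIV-1 on the right; each point is 1 batch. On the right SEMA3A and SEMA3F lie between 0.33 and 0.57 in every batch, SEMA6D spreads from 0.36 to 1.40, and SEMA3B is far from 0 in batch 3 alone, at 0.96.

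Members that moved alike within batches were compared after each batch's mean had been removed from log2 CPM. As a description over 9 libraries that share batches and scaling, Pearson's r was 0.931 for SEMA3A with SEMA6D, 0.906 for SEMA3A with SEMA3F and 0.898 for SEMA3B with NRP1. It was -0.892 for SEMA3C with NRP1, -0.869 for SEMA3C with SEMA6D and -0.835 for SEMA3D with NRP2. The pairs named are those of highest and lowest r in the set, and no value over pairs of other genes stands beside them. Differences between treatments, which the rule used, remain in these values. Between raw levels the order was set by the batches: SEMA3A and SEMA6D, which moved together within batches, had an r of -0.548 before the batch means were removed.

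Among the 12949 genes compared, those most like SEMA3A over the 9 libraries were RASGRF2 (Pearson's r 0.9989), ZNF516 (0.9983), TMEM44 (0.9982), FCHSD2 (0.9981) and DPYSL2 (0.9981). The libraries fall into 2 clusters, batch 3 and the rest, and 204 genes had an r over 0.99, so this likeness is mostly that 1 step. RASGRF2, a Ras exchange factor, stood at 4.11 CPM in batches 1 and 2 and at 34.4 CPM in batch 3, and DPYSL2, another collapsin response mediator, at 142 and 288 CPM. By rank, DNMT3A and CCDC125 followed SEMA3A in exact order (Spearman's rho of 1). With batch means removed, the genes most like SEMA6D included MAN1B1 (0.9884), ITGB8 (0.9872), SDCBP (0.9871) and TNFRSF1B (0.9862), and no gene passed 0.99. ITGB8, an integrin chain, was higher with LTA than with HIV-1 alone by 0.24, 0.99 and 0.82 in the 3 batches, and TNFRSF1B, a receptor for TNF, by 0.12, 0.62 and 0.45. By rank TNFRSF1B was again among the first 5, at 0.9833.

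A deposited list of 166 ChIP-seq peaks, with a median length of 226 bases and no value per peak, was set against the genes on GRCh37. Its peak names point to the HIV-1 ChIP sample, whose title names Lx2 cells while its source and cell line labels read Lx5. No peak lay in the body of any of the 10 genes or of the other 21 semaphorins and plexins. The nearest to a member was 1.107 Mb from SEMA3B, and the antibody is not given in the sources used here.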

How the data were processed

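The input was the RNA-seq of 9 Lx2 libraries taken at 24 h, 3 per treatment, and 1 peak list. Per the submitters' processing notes, the tools were STAR, HTSeq, fastp and SAMtools, and for ChIP-seq Bowtie2, bedtools and deepTools, and the build was hg19. Versions, the strand setting and the peak threshold are not given in the sources used here. Whole-number raw counts by gene symbol were deposited. The deposited DESeq2 table holds a mean signal (normalized counts averaged over libraries), log2 fold changes with their log2 standard errors, a Wald score and p-values. It names no comparison, and a DESeq2 fit of HIV-1+LTA against PBS with batch gave 19990 of its 19990 fold changes within 0.01.

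Counts were filtered with filterByExpr (16117 of 35303 genes) and fitted with edgeR 4.0.16 (quasi-likelihood test, TMM scaling) in R 4.3.3, with batch and group over all 9 libraries. P-values were adjusted by Benjamini-Hochberg over all genes tested, and a call is an adjusted p below 0.05. The SE of an edgeR fold change is its absolute value divided by the square root of the F statistic of its test. It is thus not the same measure as the standard error in the deposited table. CPM are TMM-scaled, and log2 CPM has a prior count of 2. The fits were repeated with limma-voom (limma 3.58.1), DESeq2 1.42.0, RLE scaling, no filter, no block, only the 6 libraries compared, no group term, and without each library or batch. The fits were tested on simulated data.

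The replicate number is the batch in the labels. The labels thus pair the libraries. Deviations from the group means correlated at 0.705 to 0.917 between same-number libraries and at 0.684 to 0.764 between batches 1 and 2, so these values set only batch 3 apart. Counts limit precision by counting error. The p-values of the main fit rest on the spread left between libraries once batch and group are taken out. Batch 3 is 1 batch, so the p-values of its comparison do not measure the spread between batches.

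The members and the gene lists were chosen with earlier results of these data known. Named genes of a list are up to 6 called genes with the largest fold change and a mean of at least 1 CPM, or, where none was called, its most abundant genes. The genes most like a member are the 5 with the highest Pearson's r, of which 1 is not reported here. SEMA3E and SEMA5A were singled out in the closing section after their values were seen. Positions and exon lengths are from GENCODE on GRCh37, and promoter windows from RefSeq on GRCh38.p14.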

Additional observations from a re-analysis of the deposited data

How the results depend on the processing

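With no replicate block, edgeR called 0 genes in each of the 3 treatment comparisons, as it did with the block. With 0 calls either way, the calls cannot show what the pairing does. For HIV-1+LTA against HIV-1 the SE of SEMA3A was 0.0658 with the block and 2.14 without it. Genes with an unadjusted p under 0.05 in edgeR were 2486 and 153. The number of treatment calls differed with other choices. HIV-1 against PBS had 30 calls without the filter on low counts, 1 with DESeq2, 3 with DESeq2 on genes of a total count of at least 10, 2 when only the 6 libraries compared were fitted, and 0 to 5 with a library or batch left out. HIV-1+LTA against HIV-1 had 1017 without the filter, 250 and 252 with the DESeq2 settings and 0 to 2390 with a library or batch left out. HIV-1+LTA against PBS had 1045, 233, 236 and 0 to 2648 in the same order. The highest counts of the last 2 came without HIV-1+LTA replicate 1. Without the filter, edgeR called SEMA3A, SEMA3B, SEMA6D and NRP1 higher in both comparisons with LTA. Of all 25265 genes it called 580 higher there against HIV-1 and 519 higher against PBS. The cause was not tested. Batch 2 against batch 1 had 5 calls, and 332 without the filter, of which 62 of 25265 genes were lower, NRP1 among them. It had 103 with DESeq2, 9 with limma-voom, 2 without the group term and 1 to 214 with a library left out.

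Of the other semaphorins and plexins, 0 were called in each treatment comparison with edgeR. For HIV-1 against PBS it was 1 without the filter and 1 in the fit of 6 libraries, where 30 of 25265 and 2 of 15597 genes were called. For HIV-1+LTA against HIV-1 it was 3 without the filter, 1 with each DESeq2 setting and 0 to 9 with a library or batch left out, and for HIV-1+LTA against PBS 4, 1 and 0 to 8. Calls over all genes also varied by setting. Without the filter edgeR called 1017 and 1045 of 25265 genes in these comparisons. Without HIV-1+LTA replicate 1 it called 2390 and 2648 of 16342. The DESeq2 settings called 250 of 16117 and 252 of 19990 in the first comparison, and 233 and 236 in the second. Between batches 2 and 1 it was 2 without the filter, where 332 of 25265 genes were called. The counts of genes called in batch 3 stayed within 1.5 times the reported ones under every alternative run. No fold change of a member that was called changed direction. The fewest counts per library were 118 to 689 for SEMA3F and SEMA6D, 163 to 341 for SEMA3A in batches 1 and 2 and 149 to 298 for SEMA3B in batch 3.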

Other observations

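SEMA3E, the class 3 ligand that binds PLXND1 without a neuropilin, was lower with HIV-1 than with PBS in each batch, by -0.39, -0.56 and -0.55 in log2 CPM. Its fitted log2 fold change was -0.50 (SE 0.145), and it was not called (adjusted p = 0.946 in edgeR). With LTA added it was higher than with HIV-1 alone in batches 1 and 2, by 0.39 and 0.69, and lower in batch 3, by -0.21. The gene was singled out after its values were seen, and 17.1% of all genes were lower with HIV-1 in 3 of 3 batches.

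SEMA5A, a transmembrane semaphorin with thrombospondin repeats, stood at 124.7 CPM in the HIV-1+LTA library of batch 2, and its mean over the 3 libraries of batch 1 was 56.8 ± 2.89 CPM (SD, n = 3). That HIV-1+LTA library of batch 2 was also the highest of all 9 for SEMA6D, at 9.71 CPM, and for PLXNB2, at 115 CPM. The same held for several more of the family, among them SEMA3B (34.9 CPM), SEMA3E (18.4 CPM) and PLXND1 (71.6 CPM). For SEMA3C and SEMA7A it was the lowest, at 135 and 7.11 CPM. How many of all genes were highest in that library was not counted.

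In the HIV-1+LTA library of batch 3 the deposited counts of SEMA3A and SEMA3C were both 9282, while in the other 8 libraries SEMA3C had the higher count.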
